A study of Mus musculus with 6 samples.

Results

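The AP-1 genes studied here are the FOS family (Fos, Fosb, Fosl1 and Fosl2), the JUN family (Jun, Junb and Jund) and Atf3. They were taken as every probe set whose platform annotation gives exactly 1 of these symbols, which found 12 probe sets of the 8 genes among the 45101 probe sets and 18193 named genes on the array. Fosl1, Fosl2, Jun and Jund have 2 probe sets each. A gene is represented by its probe set with the highest mean level, called the brightest, and the other probe set is given beside it. The brightest are 1423100_at (Fos), 1422134_at (Fosb), 1417487_at (Fosl1), 1437247_at (Fosl2), 1417409_at (Jun), 1415899_at (Junb), 1449117_at (Jund) and 1449363_at (Atf3). The mean levels of all 8 brightest probe sets lay above 4.84, the log2 level of the median probe set. Of the 18193 genes, 11740 lay at or above that level by their brightest probe set. The dimmer Jund probe set, at a mean of 4.07, was the only one of the 12 below it. Levels of different probe sets are not comparable with each other, so each gene is followed across arrays only.

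AP-1 is a transcription factor made of a pair of proteins joined through a leucine zipper, usually a FOS protein with a JUN protein. JUN proteins can also pair with each other, while FOS proteins need a JUN partner. Several of these genes are immediate early genes: serum, growth factors, cyclic AMP and stress switch on their transcription within minutes, through factors already present in the cell, and their messages decay quickly. In cultured fat-cell precursors a brief Fos and Jun response is known to follow the hormone mix that starts fat-cell differentiation.

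The study exposed cultures of mouse mesenchymal stem cells, multipotent stromal cells able to form fat and bone, to pulsed broadband terahertz radiation for 2 h and asked which transcripts differed from an adjacent control culture. There were 3 independent experiments with 1 irradiated and 1 control culture each, so 3 irradiated and 3 control arrays. The radiation was centred near 10 THz, with 35 fs pulses at 1 kHz and an average of 1 mW/cm2, and control cultures received none. Both arms stood at 26 to 27 °C, and both had received an adipogenic mix again 48 h before: dexamethasone (1 µM), 3-Isobutyl-1-methylxanthine (100 µM), which inhibits phosphodiesterases, rosiglitazone (1 µM; Roziglitazone in the labels) and insulin (5 µg/ml). The cells were bought from a supplier, the labels used here name no strain, and RNA was taken immediately after exposure.

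Whole-array checks bear on the comparisons as follows. By their mean over the 6 arrays, 8 of the 9 measured stromal markers lay above the median probe set, with Thy1 below it. Fat-cell markers (6 of 6) and macrophage and leukocyte markers (8 of 8) also lay above it. Of the endothelial markers, 5 of 6, Pecam1 and Cdh5 among them, lay below it. Over the 18193 genes, 11740 lay at or above it by their brightest probe set. The spike-in controls averaged 11.63 on the control array of experiment 3 and 11.06 to 11.25 on the other arrays. In bulk cultures, fewer cells making a transcript and less transcript per cell cannot be told apart.

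Promoter windows are shown for Fosb and Atf3, which passed the test at every step between experiments, and for Fos and Jun, the founding genes of their families. They run from 250 bases before to 50 after the start of the gene in RefSeq (GRCm38.p6), which gave a window for 7 of the 8 genes. The Fos window is chr12:85473640-85473939 on the plus strand. The windows of Fosb (chr7:19309996-19310295), Jun (chr4:95052173-95052472) and Atf3 (chr1:191183284-191183583) are on the minus strand. Capitals mark matches to the motifs named below.
Fos: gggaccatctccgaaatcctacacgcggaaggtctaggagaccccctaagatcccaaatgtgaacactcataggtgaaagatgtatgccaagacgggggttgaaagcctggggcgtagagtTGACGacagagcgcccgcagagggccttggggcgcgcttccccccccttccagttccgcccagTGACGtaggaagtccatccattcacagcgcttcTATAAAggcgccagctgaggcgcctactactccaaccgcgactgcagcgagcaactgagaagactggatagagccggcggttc
Fosb: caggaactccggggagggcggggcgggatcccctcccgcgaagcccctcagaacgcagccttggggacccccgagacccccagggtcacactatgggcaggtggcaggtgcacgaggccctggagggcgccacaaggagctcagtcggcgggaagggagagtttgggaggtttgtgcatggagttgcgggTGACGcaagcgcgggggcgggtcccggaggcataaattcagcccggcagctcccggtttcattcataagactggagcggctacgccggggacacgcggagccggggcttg
Jun: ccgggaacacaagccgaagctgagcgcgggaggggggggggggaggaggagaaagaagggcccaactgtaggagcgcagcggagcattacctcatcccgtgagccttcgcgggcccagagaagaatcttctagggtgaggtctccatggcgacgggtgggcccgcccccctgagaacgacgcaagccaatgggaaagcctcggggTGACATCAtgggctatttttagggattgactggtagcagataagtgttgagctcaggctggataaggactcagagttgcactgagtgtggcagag
Atf3: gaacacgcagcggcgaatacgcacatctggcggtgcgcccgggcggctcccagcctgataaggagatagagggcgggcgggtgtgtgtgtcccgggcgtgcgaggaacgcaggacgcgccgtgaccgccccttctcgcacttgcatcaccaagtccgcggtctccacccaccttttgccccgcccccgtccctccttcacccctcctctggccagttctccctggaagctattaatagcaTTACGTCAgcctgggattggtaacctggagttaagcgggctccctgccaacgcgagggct
The letters TGACG, the core that cyclic AMP response factors (CREB and ATF proteins) recognise, were searched on both strands. They occur in 4 of the 7 AP-1 windows, against 20.8% of all 32851 windows in the table. In Fos they begin 129 and 66 bases before the start, in Fosb 60 and in Junb 106 bases before it. In Atf3 the reverse complement lies within TTACGTCA, which begins 10 bases before the start and is found in 0.499% of all windows. Jun holds TGACATCA, an AP-1-like site, 45 bases before its start, as do 3.62% of all windows. The letters of these last 2 motifs were chosen after the windows were seen. The sequence TATAAA, searched on the sense strand, lies 33 bases before the start of Fos and at base 1 of Junb and is found in 8.32% of all windows. The full cyclic AMP element TGACGTCA (1.79% of all windows), the AP-1 site TGANTCA (7.81%) and the CArG box bound by SRF (1.63%) had no match in any of the 7 windows. A match, or the lack of one, is a description of the letters in these windows only. Sites farther than 250 bases before the start were not searched.

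The main pattern in the AP-1 genes was a difference between experiments that both arms shared. Levels are RMA log2 levels, given first for the control and then for the irradiated culture. Fos, the founding member of the FOS family, measured 11.09 and 10.72 in experiment 1, 12.77 and 12.65 in experiment 2, and 13.13 and 13.22 in experiment 3. Fosb, its close relative, went from 4.37 and 4.11 to 8.74 and 8.40 and then to 9.96 and 9.92. In both genes every array of a later experiment lay above every array of an earlier one. The Fosb levels of experiment 1 lie below the median probe set, and those of experiment 3 lie more than 5 log2 units higher.

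Fosl1, which codes for Fra-1, measured 8.75 and 8.74 in experiment 1, 9.74 and 9.72 in experiment 2, and 9.98 and 9.68 in experiment 3. Experiments 2 and 3 overlapped in this gene, and both lay above experiment 1. Its dimmer probe set went from 5.07 and 5.07 to 6.36 and 6.10 and then 6.68 and 6.35. Fosl2, which codes for Fra-2, went from 10.49 and 10.67 to 11.29 and 11.37 and then to 11.49 and 10.93. This was the narrowest range of the 8 genes, 1 log2 unit, and the arrays of experiment 3 lay on either side of those of experiment 2. The dimmer Fosl2 probe set stayed between 5.75 and 6.29.

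Jun, the DNA-binding partner of FOS proteins, measured 9.85 and 9.57 in experiment 1, 11.27 and 11.09 in experiment 2, and 12.14 and 12.22 in experiment 3. Its dimmer probe set ran from 8.83 on its lowest array, in experiment 1, to 11.09 on its highest, in experiment 3. On neither probe set did any experiments overlap. Junb, which can oppose Jun at some genes, went from 8.18 and 8.52 to 10.48 and 10.44 and then to 11.06 and 10.75. Jund, the JUN gene that is least tied to stimulation, went from 9.56 in both arms to 10.44 and 10.36 and then to 10.65 and 10.72. Both genes kept the order of the experiments with no overlap. The dimmer Jund probe set lay between 3.90 and 4.27 on all arrays.

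Atf3, a stress-induced bZIP factor that pairs with JUN proteins, measured 8.39 and 8.46 in experiment 1, 10.18 and 10.22 in experiment 2, and 12.21 and 11.87 in experiment 3. It moved in near-equal steps, while Fos, Fosb, Junb and Jund took the larger step between experiments 1 and 2. Over the 12 probe sets, 10 had all 4 arrays of experiments 2 and 3 above both arrays of experiment 1, as did 11% of all probe sets. The ascending order of experiments 1, 2 and 3 with no overlap was seen in 7 of the 12 and in 3.83% of all probe sets. Within the control cultures alone all 8 genes ascended over the experiments, as did 19.6% of all probe sets. Within the irradiated cultures 6 of 8 did, against 17.8%, and Fosl1 and Fosl2 did not. Both shares are over probe sets of any level, and no such share was computed over genes by their brightest probe set.

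**Figure D1:**
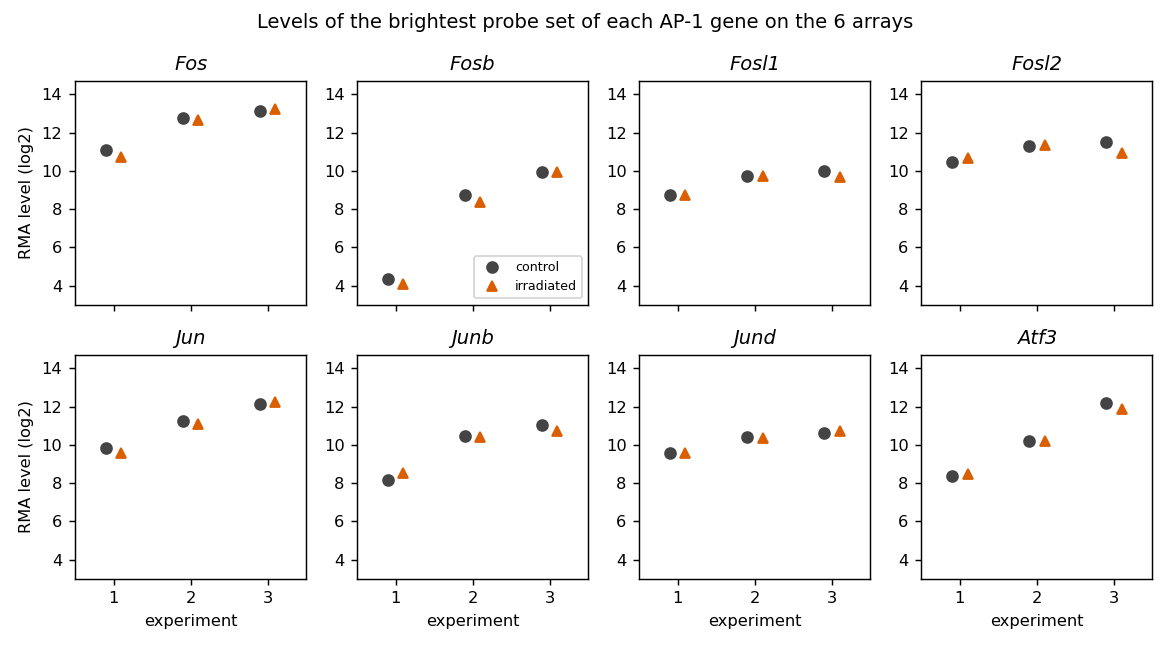
RMA log2 level (vertical axis) of the brightest probe set of each AP-1 gene in experiments 1, 2 and 3 (horizontal axis), with the control culture as a circle and the irradiated culture as a triangle. The 2 arms of an experiment lie close together, within 0.56 for every gene, while Fosb climbs from 4.11 on its lowest array to 9.96 on its highest.

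Differences between experiments were tested in 1 limma fit of all 45037 probe sets other than Affymetrix controls, with the arm as a term and Benjamini-Hochberg adjustment in each comparison. The errors are standard errors of that fit, over 2 cultures per experiment. From experiment 1 to experiment 2, 7 of the 8 genes rose, on 9 of 12 probe sets, where 0.473% of all probe sets were called higher and 0.52% in either direction. Fosb rose by 4.33 ± 0.11 on the log2 scale, or 20.1-fold (limma adjusted p = 0.00058), the highest difference of the 18193 genes. Junb rose 4.32-fold (2.11 ± 0.16, limma adjusted p = 0.0078), Fos 3.49-fold (1.81 ± 0.13, 0.0064) and Atf3 3.42-fold (1.78 ± 0.13, 0.0064). Jun rose 2.77-fold (1.47 ± 0.12, limma adjusted p = 0.0094). The smaller rises were those of Fosl1, 1.98-fold, and Jund, 1.79-fold, both with a limma adjusted p of 0.029. Fosl2 was at 0.75 ± 0.19 and did not pass (limma adjusted p = 0.25).

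From experiment 1 to experiment 3 the same count of genes rose, 7 of 8, on 9 of 12 probe sets, where 1.87% of all probe sets were called higher and 3.05% in either direction. This comparison shares experiment 1 with the one before it, so the values stand side by side and are not independent. Fosb rose 52.0-fold (5.70 ± 0.11, limma adjusted p = 0.00011) and Atf3 12.3-fold (3.62 ± 0.13, 0.00029), ranking 2 and 11 among the 18193 genes. Junb rose 5.88-fold (2.56 ± 0.16), Jun 5.54-fold (2.47 ± 0.12) and Fos 4.82-fold (2.27 ± 0.13), with limma adjusted p values of 0.0015, 0.00069 and 0.0011. Jund rose 2.18-fold and Fosl1 2.12-fold, at limma adjusted p values of 0.0048 and 0.0088. Fosl2 was at 0.63 ± 0.19 (limma adjusted p = 0.15). Both Fosb folds are taken against a level below the median probe set.

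Between experiments 2 and 3, 2 of the 8 genes rose, where 0.0355% of all probe sets were called, all of them higher. These were Atf3, by 3.58-fold (1.84 ± 0.13, limma adjusted p = 0.035), and Fosb, by 2.58-fold (1.37 ± 0.11, limma adjusted p = 0.042). Jun was at 1.00 ± 0.12 and did not pass (limma adjusted p = 0.095), and it did pass, with Fosb and Atf3, in the fits with an intensity trend or with bright probe sets alone. Fos was at 0.47 ± 0.13, Junb at 0.45 ± 0.16 and Jund at 0.29 ± 0.10, with 95% intervals from 0.15 to 0.78, 0.06 to 0.83 and 0.05 to 0.52 and no call. With 1 array left out, Fos ranged from 0.2975 to 0.6325, Junb from 0.215 to 0.675 and Jund from 0.2275 to 0.3425. Fosl1 at 0.10 ± 0.11 and Fosl2 at -0.12 ± 0.19 did not pass either. In the order of the experiments, only Atf3 and Fosb were therefore separated at both steps by this fit.

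The calls did not outlast the removal of any single array. With any 1 of the 6 arrays removed, 1 residual degree of freedom is left, and limma called 0 probe sets of the whole array in each of the 3 comparisons. At an unadjusted p of 0.05, 7 or 8 of the 8 genes still passed in each comparison with experiment 1, and 2151 to 8607 of all probe sets did. On all 6 arrays that count was 8 of 8 genes in both, where 9.89% and 19.1% of all probe sets passed, and 6 of 8 between experiments 2 and 3, where 9.89% did. The last count was lower without the control or the irradiated array of experiment 2, and without the irradiated array of experiment 3. Over all probe sets the count was higher without the irradiated array of experiment 3 and lower without any other single array. Over the fits without 1 array Fosb lay between 4.235 and 4.425 in experiment 2 minus experiment 1 (limma adjusted p from 0.085 to 0.78), and Atf3 between 3.4175 and 3.8125 in experiment 3 minus experiment 1. Fosl2 lay between 0.285 and 0.975 in the latter comparison. The 2 cultures of an experiment were run side by side, and the experiment cannot be told apart from culture batch, RNA handling and hybridization. The Gapdh integrity probes, 3' end minus 5' end, stood at 0.19 and 0.23 in experiment 1 and from -0.05 to -0.01 in experiments 2 and 3. Its part in the AP-1 differences was not tested.

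**Figure D2:**
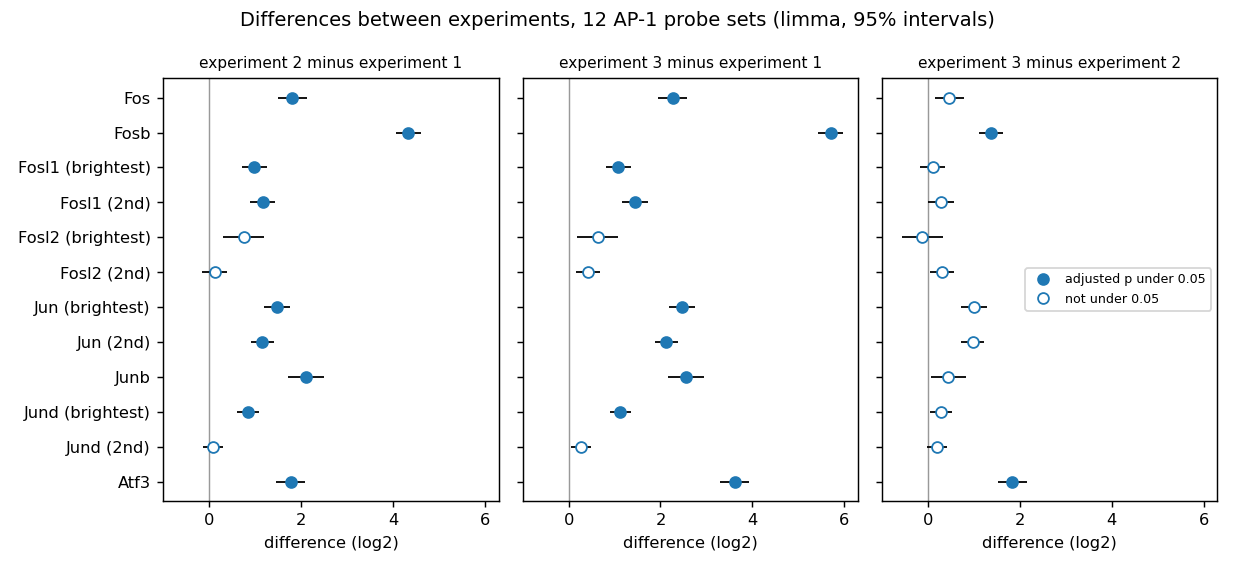
Differences between experiments (log2, horizontal axis) for the 12 AP-1 probe sets (vertical axis), 1 panel per comparison, with bars for limma's 95% intervals and filled points for adjusted p under 0.05. Fosb and Atf3 are filled in all 3 panels, and both Fosl2 probe sets and the dimmer Jund probe set are open in all 3.

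The paired probe sets of a gene did not always move alike. The probe sets of Jun gave 2.47 and 2.13 for experiment 3 minus experiment 1, and those of Fosl1 gave 1.09 and 1.45, all passing. For Jund the brightest probe set rose by 1.13 ± 0.10, while the dimmer was at 0.28 ± 0.09 and did not pass (limma adjusted p = 0.18). With the mean of both Jund probe sets the difference of experiment 2 and experiment 1 was 0.4575 and no longer passed. The Fosl2 probe sets were at 0.63 and 0.42 (limma adjusted p = 0.15 and 0.11). The experiment took 96.9% to 99.7% of the sum of squares over the 6 arrays in 7 of the 8 brightest probe sets and 78.7% in Fosl2. A share above 90% was seen in 9 of the 12 probe sets and in 8.6% of all probe sets.

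Irradiation gave no call for any AP-1 gene. In the limma fit that blocks on experiment, 0 of the 12 probe sets passed, as did 0% of all probe sets, and 0 of the 12 had an unadjusted p under 0.05 where 4.97% of all probe sets (2237) did. Limma adjusted p was between 0.929 and 0.994. The 95% interval lay inside 1.5-fold in both directions for all 12 probe sets, as for 97.2% of all probe sets, and inside 2-fold for all 12, as for 99.9%. With 3 pairs, 0.25 is the smallest two-sided p that an exact sign-flip test allows.

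Fosb had the lowest p of the 8 genes in this comparison. Its irradiated minus control differences were -0.26, -0.34 and -0.04 in experiments 1, 2 and 3, with a mean of -0.21 ± 0.09 (n = 3 pairs) and an interval from -0.43 to 0.01. All 3 pairs were negative. The gene ranged over 5.85 across the arrays, but 99.7% of its sum of squares lay between experiments, which this comparison removes. Its unadjusted limma p was 0.054 and fell under 0.05 in some alternative fits listed at the end, none of which called the gene. Fos differed by -0.37, -0.12 and 0.09, with a mean of -0.13 ± 0.11, and Jun by -0.28, -0.18 and 0.08, with a mean of -0.13 ± 0.10. In both genes the irradiated culture was lower in experiments 1 and 2 and higher in experiment 3.

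Atf3 differed by 0.07, 0.04 and -0.34, Fosl2 by 0.18, 0.08 and -0.56, and Junb by 0.34, -0.04 and -0.31. These 3 genes were lower in the irradiated culture of experiment 3, the reverse of Fos and Jun, and the means were -0.08 ± 0.11, -0.10 ± 0.15 and 0.00 ± 0.13 (-0.0033 before rounding). Fosl1 differed by -0.01, -0.02 and -0.30, with a mean of -0.11 ± 0.09. Jund differed by 0.00, -0.08 and 0.07. Experiment 3 is the one whose control array had the highest spike-in mean, and without it the means were 0.13 for Fosl2, 0.15 for Junb and 0.055 for Atf3. The part of the spike-in difference was not tested.

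The 8 brightest probe sets all had negative means, although Junb turned positive with array weights and Jund with quantile normalization or the mean of its probe sets. Junb and Jund also turned positive without replicate 2, and Fosl2, Junb and Atf3 without replicate 3. The dimmer probe sets of Fosl1 and Jun were negative (-0.20 and -0.04), and those of Fosl2 and Jund were positive (0.07 and 0.11). The median of the 8 brightest was -0.11, against 0.0033 over the 18193 genes, of which 8752 were negative. Pair medians of the 8 genes were -0.005, -0.06 and -0.17. Of the 12 probe sets 3 kept a single sign over the 3 pairs, near the 23.8% of all probe sets. These were Fosb and the brightest Fosl1 probe set, both negative, and the dimmer Jund probe set, which was positive. Fat-cell markers were negative in this comparison too, 6 of 6 with a median of -0.13 and none passing. The log2 of their summed linear levels, in which the brightest markers weigh most, was 15.678 to 15.727 in irradiated cultures. In control cultures it was 15.749 to 15.88. How many genes or lists of the whole array separate the arms in this way was not counted. Of the other marker lists, 3 were positive throughout in this comparison, with none passing, where 9183 of the 18193 genes were positive. They were macrophage and leukocyte markers (8 of 8), endothelial markers (6 of 6) and smooth muscle markers (5 of 5). The smooth muscle median was 0.19, with pair medians of 0.61, 0.12 and -0.08. Stromal markers were mixed, 5 positive and 4 negative, as were neuronal markers, 2 positive and 4 negative, with none passing. Macrophage and leukocyte markers summed to 15.378 to 15.442 in irradiated and 15.272 to 15.417 in control cultures. The endothelial sums were 6.589 to 6.62 and 6.369 to 6.624, and the smooth muscle sums 12.927 to 13.193 and 12.654 to 13.137. These 3 lists overlapped between the arms. The part of the marker differences in the AP-1 values was not tested.

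**Figure D3:**
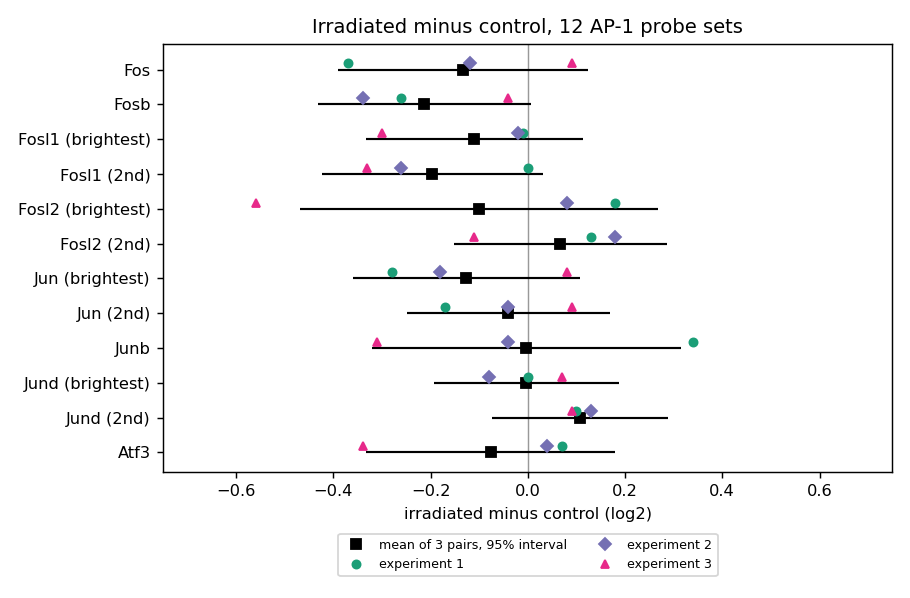
Irradiated minus control (log2, horizontal axis) for the 12 AP-1 probe sets (vertical axis), with a coloured point for each experiment, a square for the mean of 3 pairs and a bar for its 95% interval from limma. Every interval spans 0 and none reaches 1.5-fold, and the widest is that of the brightest Fosl2 probe set, from -0.47 to 0.27.

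Genes listed as upstream of AP-1 genes or as regulators of AP-1 proteins were followed in the same fit. Of 10 measured transcription factors that act on the Fos and Jun promoters, 0 were called in experiment 2 minus experiment 1, where 0.473% of all probe sets were called higher and 0.0466% lower. In experiment 3 minus experiment 1, 1 was called higher and 0 lower, against 1.87% and 1.18% of all probe sets. The one called was Crem, a cyclic AMP-responsive factor that also gives rise to the repressor ICER, at 0.92 ± 0.16 (limma adjusted p = 0.041) after 1.08 ± 0.16 (0.069) in experiment 2. Elk1 and Elk4, the partners of SRF, were at -0.24 and -0.30 and did not pass. Medians of this list were -0.03 and -0.08, against -0.02 over all genes in both comparisons.

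MAP kinases carry growth and stress signals to FOS and JUN proteins. Of 13 measured members 0 were called in experiment 2 minus experiment 1, where 0.52% of all probe sets were, and 1 in experiment 3 minus experiment 1, where 3.05% were. That was the stress kinase gene Map3k5 (ASK1), which fell by 0.87 ± 0.13 (limma adjusted p = 0.025). Map3k1 was at -0.75 ± 0.17 and Map2k3 at 0.43 ± 0.10, neither past the test, and the list medians were -0.035 and -0.095. Of 4 measured genes listed as regulators of FOS and JUN proteins, 0 were called in experiment 2 minus experiment 1. In experiment 3 minus experiment 1, 1 was called higher, against 1.87% of all probe sets. Whether the listed genes act on these proteins in these cells was not tested. The gene called was Jmjd6, at 0.98 ± 0.10 (limma adjusted p = 0.0076), while the Jun ubiquitin ligase genes Fbxw7 and Itch were at 0.40 and -0.23 and did not pass.

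Other bZIP factors can pair with AP-1 proteins. Of 12 measured, 3 rose from experiment 1 to experiment 3 and 0 fell, where 1.87% of all probe sets were called higher and 1.18% lower, and the median was 0.26. They were Ddit3, the stress factor CHOP (1.91 ± 0.13, limma adjusted p = 0.0022), and the small MAF genes Mafk (1.11 ± 0.11, 0.0073) and Maff (1.73 ± 0.18, 0.0095). Ddit3 was the only one of the list called in experiment 2 minus experiment 1, at 0.99 ± 0.13 (limma adjusted p = 0.048), where 0.473% of all probe sets were called higher. Between experiments 2 and 3 limma called 0 of the 12, and 0 genes in each of the other lists around AP-1, against 0.0355% of all probe sets.

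Among 17 measured AP-1 target genes, 6 rose from experiment 1 to experiment 3, 5 rose from experiment 1 to experiment 2 and 0 fell in either. Over all probe sets 1.87% and 0.473% were called higher in these comparisons, and 1.18% and 0.0466% lower. Ptgs2, the inducible cyclooxygenase, went from 7.58 and 7.37 to 11.56 and 11.71 and then to 12.32 and 11.80, a rise of 4.59 ± 0.16 (limma adjusted p = 0.00029). Hbegf, a membrane-bound EGF receptor ligand, rose by 3.84 ± 0.13 (limma adjusted p = 0.00029) and Vegfa by 1.27 ± 0.09 (limma adjusted p = 0.0028). The other genes that rose to experiment 3 were Il6, Lif and Ccl2. The collagenase gene Mmp13 was at -0.02 and the protease inhibitor gene Timp1 at 0.19, and neither passed. The median of the list was 0.34, far from the 4.59 of its highest member. In irradiated minus control 0 of the 17 passed (limma), and Plau (-0.23 ± 0.19), Lif (-0.21 ± 0.20) and Ptgs2 (-0.19 ± 0.13) had the lowest p.

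Early response genes outside AP-1, which include growth and stress regulators, rose between experiments as well. Of 15 measured, 13 rose from experiment 1 to experiment 2 and 14 to experiment 3, where 0.473% and 1.87% of all probe sets were called higher. The medians were 1.88 and 2.25, and Klf4 (2.86 ± 0.10), Ier3 (3.27 ± 0.14) and Ier2 (2.66 ± 0.11) had the lowest p of the list in the latter. Myc passed in neither. Of the cell type markers, 0 of 9 stromal, 0 of 6 fat-cell and 0 of 8 macrophage and leukocyte markers were called in the 3 comparisons of experiments, in which 0.52%, 3.05% and 0.0355% of all probe sets were called. Of the other marker lists, 1 of 6 endothelial, 1 of 6 neuronal and 0 of 5 smooth muscle markers rose from experiment 1 to experiment 3. Over all probe sets 1.87% were called higher. The genes called were Pecam1 (0.56 ± 0.10, limma adjusted p = 0.049) and Tubb3 (1.995 ± 0.19, limma adjusted p = 0.0068). The median was 0.08 for the endothelial list, in which 2 markers were negative, and 0.1975 for the neuronal list. Over the 6 arrays, the log2 of the summed linear levels ranged from 13.226 to 13.376 for the stromal list. It ranged from 15.678 to 15.88 for the fat-cell list and from 15.272 to 15.442 for the macrophage and leukocyte list.

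**Figure D4:**
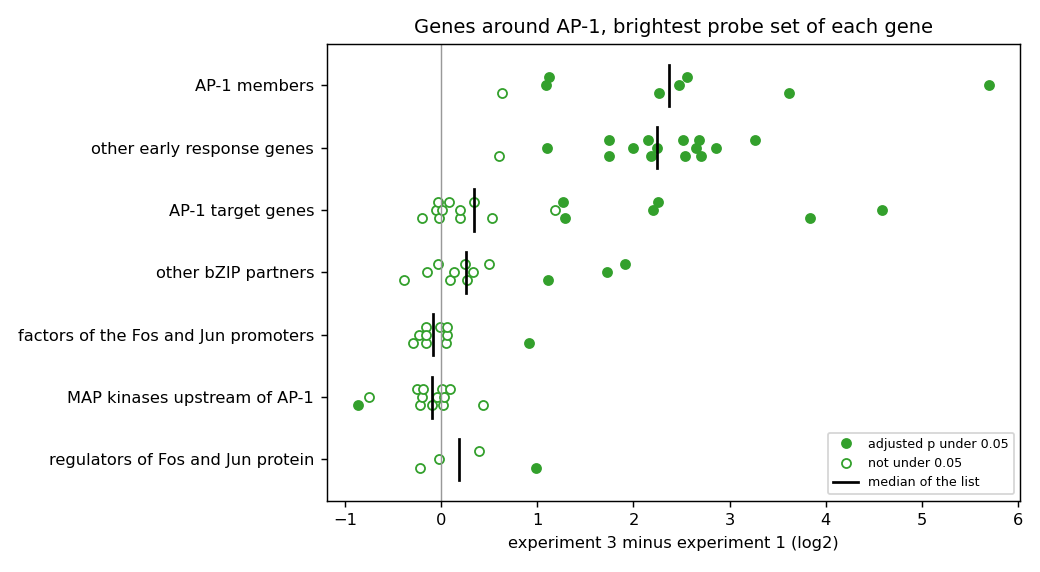
Experiment 3 minus experiment 1 (log2, horizontal axis) for the AP-1 genes and 6 lists of genes around them (vertical axis), 1 point per gene, filled where limma's adjusted p was under 0.05, with a line at the list's median. The AP-1 and early response genes have medians of 2.37 and 2.25, and the medians of the other lists lie between -0.095 and 0.34.

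Genes whose 6-array profile was nearest to an AP-1 gene were ranked by the root mean square difference of mean-centred log2 levels, over 6 arrays that share 3 experiments. A neighbour could enter through any probe set at or above the median level. Nearest to Fosl1 were the poly-ADP-ribosyltransferase gene Tiparp (0.03), Myo1d (0.033) and Mdm2, the ubiquitin ligase of p53 (0.036). Nearest to Junb were the orphan nuclear receptor gene Nr4a1 (0.078), Ier5 (0.14) and Egr2 (0.16). The neighbours of Jun were Klf2 (0.091), Ier5 (0.15) and Mxd1 (0.15), and those of Fos were Gzmm (0.11), Egr2 (0.15) and Slbp (0.17). Jund had Pnrc1 (0.049), Pcf11 (0.068) and Gdap10 (0.071) as its neighbours. Fosl2 had the urokinase gene Plau (0.051), Rabgef1 (0.061) and the clock gene Cry2 (0.070).

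For Atf3 the neighbours were Ccno (0.12), the chaperone gene Hspa8 (0.17) and the chemokine gene Cxcl2 (0.22), and Ccno went from a mean of 4.99 in experiment 1 to 6.965 in experiment 2 and 8.635 in experiment 3. The neighbours of Fosb, the least close of the 8 genes, were Ptgs2 (0.53), the chemokine gene Cxcl1 (0.55) and Hbegf (0.75). Among the AP-1 genes themselves the nearest pair was Fosl1 and Jund (0.13), followed by Fosl1 and Fosl2 (0.21) and Fos and Jun (0.22). The farthest was Fosb and Fosl2 (2.14).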

How the data were processed

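RNA abundance was measured with Affymetrix arrays on 200 ng of total RNA per culture, per the labels' protocols. For each array the authors deposited a log2 level of every probe set. The submitters' processing notes list RMA, affy and limma without versions or roles. Base 2 is RMA's scale and was assumed here, as no source states it. Because normalization equalizes arrays, all changes are relative to other transcripts. Scanner files and detection calls were not used here.

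Of 45101 probe sets, 64 Affymetrix controls were left out. The other 45037 were fitted with limma 3.58.1 in R 4.3.3 (lmFit, eBayes), with the experiment and the arm as terms, 2 residual degrees of freedom, two-sided tests and Benjamini-Hochberg adjustment over all 45037 in each comparison. The threshold was 0.05. The code was tested on simulated data. The number of arrays limits the precision: the median standard error was 0.088 between arms and 0.11 between experiments. Pairs come from the series design, and the 2 arrays of an experiment deviated together from the means of their arms (r = 0.63, 0.14 and 0.50 over probe sets), although irradiated array 2 correlated as much with control array 3 (r = 0.15). Nothing says how far cultures of different experiments share a source. The residual of the fit is the part of the difference between arms that varies from experiment to experiment. Tests between experiments therefore set a difference against the mismatch of 2 cultures run side by side. Their p-values describe these 3 experiments only.

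Genes were named from the platform annotation, and all 12 AP-1 probe sets matched RefSeq (GRCm38.p6) by Entrez identifier. Genes of a list without a single-symbol probe set are not counted as measured. Shares beside counts of genes are over all probe sets, dim ones included. By the brightest probe set of each of the 18193 genes, 0.616% were called higher and 0.033% lower in experiment 2 minus experiment 1. In experiment 3 minus experiment 1 these were 2.07% and 1.07%, and in experiment 3 minus experiment 2 0.044% and 0%. For each list the text may name the 3 members with the smallest p in a comparison, and for each AP-1 gene ranging over at least 1 log2 unit its 3 nearest genes at or above the median level. Other list members were named after their values were seen. The members and lists were chosen with earlier results of these data known. Alternatives were other blocks, normalization, centring, a filter on level, other variance priors, array weights, the mean of a gene's probe sets, single arms, and leaving out arrays or experiments.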

Additional observations from a re-analysis of the deposited data

How the results depend on the processing

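For irradiated minus control, all limma alternatives also called 0 probe sets and 0 AP-1 genes, including the fit with no replicate block, the random block and the fits without replicate 1, 2 or 3. In that fit with no replicate block 1297 probe sets had an unadjusted p under 0.05 and 0 AP-1 genes did. With median centring, bright probe sets alone, an intensity trend, array weights or no replicate 3, 1 AP-1 gene did, Fosb each time. In these fits 2270, 1146, 2260, 2323 and 1811 probe sets did, in that order. The count with bright probe sets alone is out of those at or above the median level. Signs turned for Jund with quantile normalization (0.00083) and the mean of probe sets (0.052), and for Junb with array weights (0.034). Without 1 replicate the means ranged from -0.24 to 0.13 for Fosl2, -0.175 to 0.15 for Junb, -0.04 to 0.035 for Jund and -0.15 to 0.055 for Atf3.

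Between experiments, the count of called probe sets for experiment 2 minus 1, experiment 3 minus 1 and experiment 3 minus 2 was 234, 1374 and 16. It was 374, 2513 and 64 with only probe sets at or above the median level, and 670, 3534 and 275 with an intensity trend. With the trend, Fosl2 also passed against experiment 1. Leaving out any 1 array gave 0 to 0 probe sets and 0 to 0 AP-1 genes in all 3 comparisons, since 1 residual degree of freedom remains. For experiment 3 minus 2, Fosl1 then ranged from -0.0425 to 0.2425 and Fosl2 from -0.465 to 0.225, and Fosl2 was at 0.0925 with the mean of its probe sets. In the control cultures alone, experiment 3 minus experiment 1 was 2.04 for Fos, 2.29 for Jun, 2.88 for Junb, 3.82 for Atf3 and 1.00 for Fosl2. In the irradiated cultures alone it was 2.50, 2.65, 2.23, 3.41 and 0.26. All alternatives were planned.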
